A study of Mus musculus with 10 samples.

Results

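Later B-cell transcription factors are described here across 4 Pax5 genotypes of mouse bone marrow cells, as a list of 10 genes (Irf4, Irf8, Bach2, Spib, Pou2af1, Pou2f2, Id3, Tcf4, Bcl6 and Prdm1) taken by symbol, out of 25579 genes with values. All 10 were among the 13436 genes tested, which reached at least 1 TPM in at least 1 library (TPM counts transcripts per length, scaled to the same total in each library). RNA-seq was done on C57BL/6 bone marrow cells sorted ex vivo, with 2 libraries for each of Pax5+/+, Pax5+/-, Pax5R31Q/- and Pax5-/-. The Pax5R31Q/- pro-B cells carried an allele that changes an arginine of the DNA-binding paired domain, made by CRISPR/Cas9, over a null allele, so that no normal copy remained, while Pax5+/- cells kept 1. The Pax5-/- cells were Pax5(fl/fl) Vav-Cre cells, labelled as progenitor cells though the study's text counts them as pro-B cells, in which Cre is driven throughout the blood lineage. Pax5 ChIP-seq peaks came from short-term cultured pro-B cells, 1 library from Rag2(-/-) cells with normal Pax5 (called Pax5+/+ below) and 1 from Pax5R31Q/- cells, with an antibody against the paired domain. The first is labelled only by its Rag2 genotype and was taken as normal for Pax5, and the second is given as Rag2(R31Q/-) in 1 label and as Pax5(R31Q/-) in another, which was followed. Animal age, and whether the 2 libraries of a genotype came from separate mice, are not given in the sources used here, so p-values measure only the spread between these libraries.

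Pax5 commits lymphoid progenitors to the B cell lineage by activating B cell genes and repressing genes of other lineages. The transcription factors described here act mostly after that step. IRF4 and IRF8 take part in the pre-B cell transition and in light-chain rearrangement, Spi-B is an ETS factor that binds DNA together with them, and Oct2 (Pou2f2) with its coactivator OBF1 (Pou2af1) serves octamer sites of immunoglobulin genes. E2-2 (Tcf4) is an E protein, and Id3 blocks E proteins by binding them without contacting DNA. Bach2 and Bcl6 are repressors that hold back terminal differentiation, and Blimp1 (Prdm1) is the repressor that drives it in plasma cells.

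In Pax5R31Q/- pro-B cells, Bach2 and Spib fell about equally against Pax5+/+, while the other 8 genes did not pass the test. In Pax5-/- cells, Id3, Bach2, Irf4, Spib, Pou2af1 and Bcl6 fell and Irf8 rose. None of the 10 passed the test in Pax5+/- pro-B cells. Levels below are in TPM, and differences are on the log2(TPM + 1) scale with their SE, tested with limma over all 13436 genes and called at an adjusted p under 0.05. Over the whole table, calls in Pax5R31Q/- against Pax5+/+ took in 2.55% of genes as lower and 1.62% as higher, against 2 and 0 of the 10 members. At an unadjusted p under 0.05 it was 6 of the 10 members and 2521 of all 13436 genes. The corresponding shares for Pax5-/- against Pax5+/+ were 19.7% lower and 16.2% higher, against 6 and 1 of the 10. For Pax5+/- against Pax5+/+ 0.0223% of the genes were called in either direction and 0 members, with 0 members (and 814 of all 13436 genes) at an unadjusted p under 0.05 and 0 members called by limma-voom on the recovered reads.

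**Figure D1:**
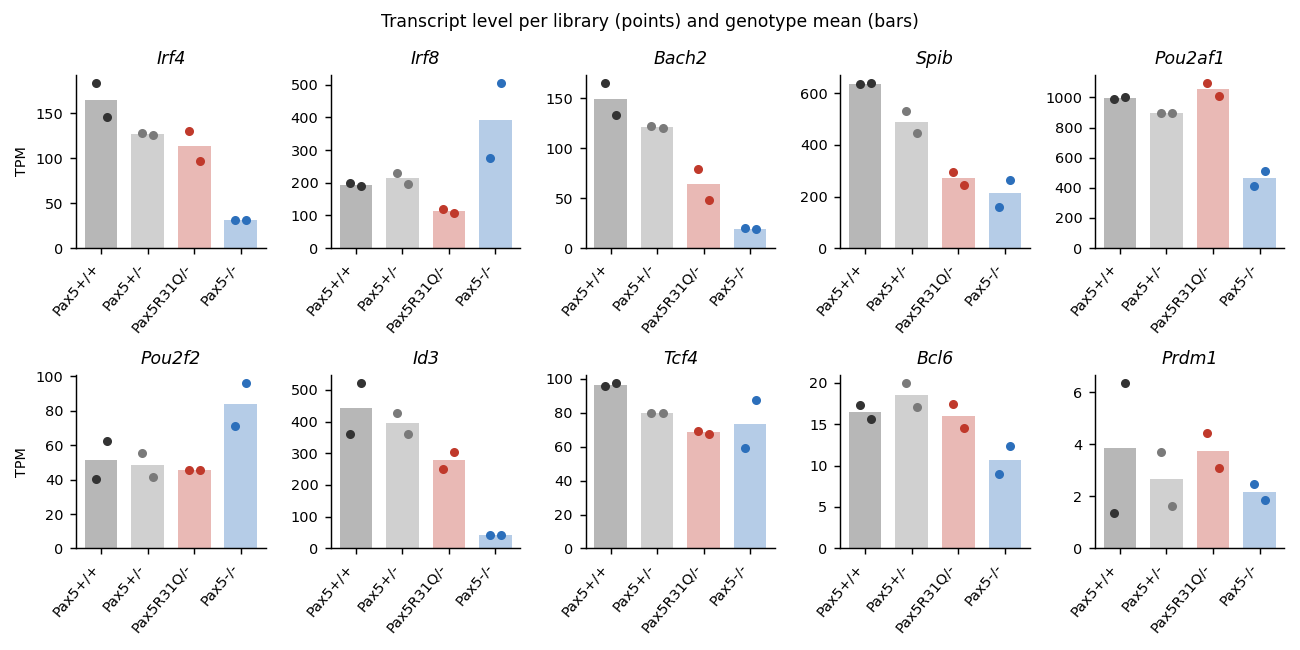
TPM (linear axes that start at 0) of the 10 genes in the 8 libraries, with a point per library and a bar for the mean of the 2 libraries of each genotype. The means of Bach2 and Spib were in the order Pax5+/+, Pax5+/-, Pax5R31Q/- and Pax5-/- from the highest, Irf8 was lowest in Pax5R31Q/- and highest in Pax5-/-, and the 2 Pax5+/+ points of Prdm1 lie at 1.35 and 6.36 TPM.

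The samples were first held against their labels. Pax5 itself was at 418 and 444 TPM in Pax5+/+, 272 and 287 in Pax5+/-, 306 and 293 in Pax5R31Q/- and 1242 and 1409 in Pax5-/-. A value for the whole gene resolves neither the exon removed by Cre nor the changed base, so it does not test those labels. The summed level of 9 pro-B cell markers ranged from 13158 to 16905 TPM in the libraries labelled pro-B and was 7287 and 6641 TPM in Pax5-/-, where 6 of the 9 were lower and 1 higher than in Pax5+/+. Markers of cells in G2/M (5 genes) summed to between 716 and 1473 TPM in those libraries and to 174 and 206 in Pax5-/-, with 5 of 5 lower, and their part in the Pax5-/- results was not tested. Depth ranged from 21649506 to 34528632 reads, and the lowest was a Pax5-/- library.

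Irf4 encodes the factor that pairs with Spi-B or PU.1 at composite sites. It was at 184 and 146 TPM in Pax5+/+, 128 and 125 in Pax5+/-, 130.3 and 96.5 in Pax5R31Q/-, and 31.07 and 31.10 in Pax5-/-. The Pax5-/- libraries stood clear below all others, and Pax5R31Q/- and Pax5+/- overlapped. Irf4 fell in Pax5-/- against Pax5+/+ (-2.36, SE 0.17, adjusted p = 6.03e-05) and was higher in Pax5R31Q/- than in Pax5-/- (1.82, SE 0.17, adjusted p = 0.000268). The difference between Pax5R31Q/- and Pax5+/+ was -0.55 (SE 0.17, adjusted p = 0.135). Pax5 peaks of Pax5+/+ cells numbered 6 in Irf4 or within 50 kb of its ends (GRCm38, chr13:30749233-30766981, + strand), and each overlapped a Pax5R31Q/- peak by at least 1 bp, which is called met below. They included a peak at the transcription start site (TSS) and a 527-bp peak in an intron, whose middle 150 bases are shown as an example of a site kept in both lists.

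Irf4 intron, chr13:30751165-30751314, + strand: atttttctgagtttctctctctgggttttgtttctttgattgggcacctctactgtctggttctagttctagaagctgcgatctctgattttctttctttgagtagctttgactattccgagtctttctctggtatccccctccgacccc

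Irf8, the relative of IRF4 that also serves dendritic cells, had another pattern. Its level was 199 and 189 TPM in Pax5+/+, 231 and 197 in Pax5+/-, 118 and 106 in Pax5R31Q/-, and 276 and 506 in Pax5-/-. Both Pax5R31Q/- libraries were below, and both Pax5-/- libraries above, all libraries of the other genotypes. Irf8 rose in Pax5-/- against Pax5+/+ (0.94, SE 0.25, adjusted p = 0.0237) and was lower in Pax5R31Q/- than in Pax5-/- (-1.73, SE 0.25, adjusted p = 0.00215). Against Pax5+/+, the difference in Pax5R31Q/- was -0.79 (95% interval -1.38 to -0.20, adjusted p = 0.150), and against Pax5+/- it was -0.92 (adjusted p = 0.243). Both differences were called when a Pax5-/- library was left out of the fit, with an adjusted p of 0.0212 for the first and 0.0444 or 0.0441 for the second. The rise in Pax5-/- was lost without either Pax5+/+ library (adjusted p = 0.0900 and 0.112) or either Pax5R31Q/- library (0.0523 and 0.0522). Its size depended on the Pax5-/- libraries, at 1.38 (adjusted p = 0.00175) without library 1 and 0.50 (adjusted p = 0.0276) without library 2.

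Plasmacytoid dendritic cells express Irf8, Spib and Tcf4 strongly, and their markers moved between the genotypes in the same libraries. The 5 markers Siglech, Ccr9, Cox6a2, Klk1 and Pacsin1 summed to 34.9 and 18.5 TPM in Pax5+/+, 11.6 and 11.3 in Pax5+/-, 5.4 and 6.92 in Pax5R31Q/-, and 199 and 412 in Pax5-/-. Of the 5, 4 rose in Pax5-/- against Pax5+/+ and 1, Cox6a2, fell in Pax5R31Q/- (-1.60, SE 0.26, adjusted p = 0.0162), and no defining marker was at 0 in any library. The Pax5-/- library with the higher marker sum was also the higher for Irf8, Spib and Tcf4, as it was for Pou2af1, Pou2f2, Bcl6 and Id3. The Pax5+/+ library with the higher sum was the higher for Irf8 (199 against 189 TPM). It was slightly lower for Spib (635 against 641 TPM) and Tcf4 (95.5 against 97.5 TPM). In sorted bulk samples a change in the number of cells of a type cannot be told apart from a change in RNA per cell, and the part of these cells in the levels of the 3 genes was not tested.

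**Figure D2:**
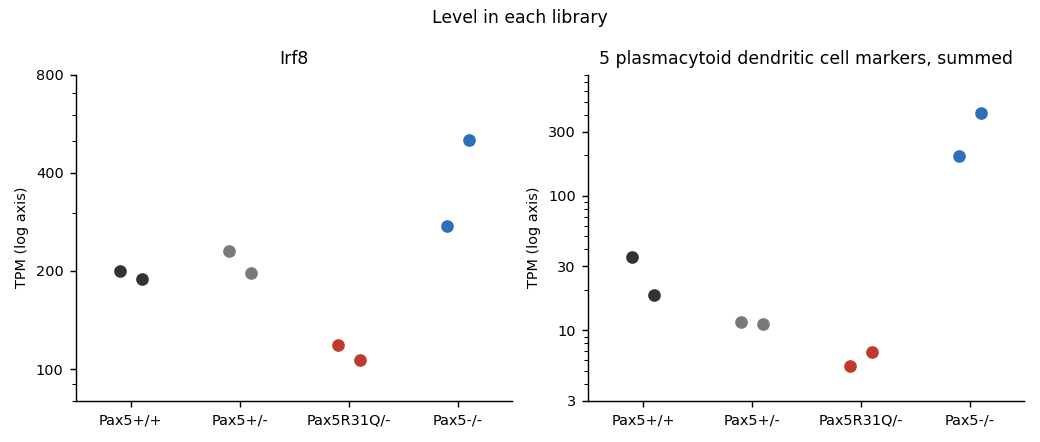
TPM on log axes for Irf8 (left) and for the sum of 5 plasmacytoid dendritic cell markers (right), with a point for each of the 8 libraries, 2 per genotype. Both were lowest in the 2 Pax5R31Q/- libraries and highest in the 2 Pax5-/- libraries, where Irf8 was at 276 and 506 TPM and the marker sum at 199 and 412 TPM.

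At Irf8 (chr8:120736358-120756694, + strand) 14 Pax5+/+ peaks were listed and 8 were met. The TSS peak, a 1474-bp peak upstream and the 4 peaks farthest upstream, which lie nearer to the TSS of Cox4i1, were met. The 2 intronic peaks were not: 1 of 1048 bp at chr8:120745653-120746700 and 1 of 498 bp at chr8:120747245-120747742. Wide peaks were seldom without a partner, since of the 874 Pax5+/+ peaks over 1 kb in the genome only 11 (1.26%) were not met, and the Irf8 peak is 1 of these 11. It was picked out after its value was seen. The middle 150 bases of both intronic peaks are shown because no Pax5R31Q/- peak was listed in the body of Irf8 beyond the TSS.

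Irf8 intron, wider peak, chr8:120746102-120746251, + strand: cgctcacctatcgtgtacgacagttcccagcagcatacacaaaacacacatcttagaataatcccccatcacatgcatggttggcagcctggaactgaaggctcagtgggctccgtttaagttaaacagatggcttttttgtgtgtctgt
Irf8 intron, narrower peak, chr8:120747419-120747568, + strand: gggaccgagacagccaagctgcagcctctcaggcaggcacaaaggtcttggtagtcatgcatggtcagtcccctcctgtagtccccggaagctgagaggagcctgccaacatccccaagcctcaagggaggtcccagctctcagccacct

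Spib was among the most abundant of the 10 transcripts in Pax5+/+ cells. It was at 635 and 641 TPM there, 532 and 446 in Pax5+/-, 296 and 246 in Pax5R31Q/-, and 159 and 266 in Pax5-/-. Pax5R31Q/- and Pax5-/- overlapped, and both were below Pax5+/- and Pax5+/+. Spib fell 2.36-fold in Pax5R31Q/- (-1.24, SE 0.23, adjusted p = 0.0279) and 3.09-fold in Pax5-/- (-1.63, SE 0.23, adjusted p = 0.00142) against Pax5+/+. The difference between Pax5R31Q/- and Pax5-/- was 0.39, with a 95% interval of -0.15 to 0.93 (adjusted p = 0.216), and it was 0.02 (adjusted p = 0.929) without Pax5-/- library 1 and 0.76 (adjusted p = 0.0132) without library 2. Against Pax5+/-, which also carries a null allele, Spib in Pax5R31Q/- differed by -0.85 (SE 0.23, adjusted p = 0.235).

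The Spib gene (chr7:44525995-44532087, - strand) is short and lies among other genes, and 12 Pax5+/+ peaks fell in it or within 50 kb, of which 9 were met. The TSS peak and the peak 2031 bp upstream of the gene were both met, so the lower Spib level stood beside a listed TSS peak in both genotypes. Most of the peaks farther upstream lie nearer to the TSS of a neighbour such as Pold1, Nr1h2 or Napsa. The listed intervals carry no height, so occupancy at a met peak could not be compared.

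Bach2 showed the other loss called in Pax5R31Q/- cells. It was at 166 and 134 TPM in Pax5+/+, 122 and 121 in Pax5+/-, 79.5 and 48.4 in Pax5R31Q/-, and 19.9 and 19.4 in Pax5-/-. No 2 genotypes overlapped, and the order followed Pax5+/+, Pax5+/-, Pax5R31Q/- and Pax5-/-. Bach2 fell 2.38-fold in Pax5R31Q/- (-1.25, SE 0.22, adjusted p = 0.0229) and 7.26-fold in Pax5-/- (-2.86, SE 0.22, adjusted p = 8.33e-05) against Pax5+/+. It was also higher in Pax5R31Q/- than in Pax5-/- (1.61, SE 0.22, adjusted p = 0.00156), while the difference of Pax5+/- from Pax5+/+ was -0.29 (SE 0.22, adjusted p = 1). Against Pax5+/-, Pax5R31Q/- differed by -0.96 (SE 0.22, adjusted p = 0.157).

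The Bach2 and Spib calls in Pax5R31Q/- rested on few libraries. Without its lower Pax5R31Q/- library, the second, Bach2 differed by -0.90 (adjusted p = 0.110), without a Pax5+/+ library the adjusted p was 0.0833 or 0.102, and without a Pax5+/- library, which is in neither group, 0.0643 or 0.0640. For Spib the adjusted p was 0.140 or 0.249 without a Pax5R31Q/- library, 0.0832 or 0.181 without a Pax5+/+ library and 0.0659 or 0.0655 without a Pax5+/- library. The Spib difference itself stayed between -1.37 and -1.11 and that of Bach2 between -1.60 and -0.90 over all 16 alternatives. Neither gene reached the rule of the study (over 3-fold, mean over 5 TPM), which 0.558% of the genes tested met downward. Mature B cell markers (5 listed) summed to 187 and 267 TPM in Pax5+/+, 209 and 181 in Pax5+/-, 64.4 and 101 in Pax5R31Q/- and 172 and 322 in Pax5-/-. Cd74 made up 148 and 259 TPM of the Pax5-/- sums. Ms4a1, which encodes CD20, was the 1 of 4 tested that fell in Pax5R31Q/- (-2.49, SE 0.46, adjusted p = 0.0261). In Pax5-/- 2 of the 4 fell, and Ms4a1 was at 0.234 and 0.190 TPM there. The part of mature B cells in the Bach2 and Spib levels was not tested. The pro-B gate of the study's methods takes Kit+ cells without surface CD2, IgM or IgD, and the purity of the sorted cells is not given.

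Pax5+/+ peaks at Bach2 (chr4:32238413-32586109, + strand) numbered 13, of which 9 were met. Both TSS peaks of 484 and 892 bp were met, as was the 711-bp intronic peak, while 3 intronic peaks of 247 to 302 bp and a 427-bp peak upstream were not. The Pax5R31Q/- list held 3 peaks of 320 to 495 bp in the gene without a Pax5+/+ partner. Across all 10 genes, only 3 Pax5+/+ peaks held the heptamer GCGTGAC, the letters searched for as the core of a Pax5 site on both strands, within 150 bp of the midpoint. They lay in a Bach2 intron, in an intron of Pold1 upstream of Spib and in a Bcl6 intron, and all 3 peaks were met. The 107 bases around each match are shown with the match in capitals, together with the middle of the upstream Bach2 peak that was not met.

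Bach2 intron, met, chr4:32523629-32523735, + strand: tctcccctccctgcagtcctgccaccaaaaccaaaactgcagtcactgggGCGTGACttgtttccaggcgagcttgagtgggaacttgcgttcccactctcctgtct
Upstream of Spib, met, chr7:44536382-44536488, + strand: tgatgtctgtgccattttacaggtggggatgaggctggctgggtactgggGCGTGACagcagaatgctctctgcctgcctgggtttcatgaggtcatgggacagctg
Bcl6 intron, met, chr16:23984303-23984409, + strand: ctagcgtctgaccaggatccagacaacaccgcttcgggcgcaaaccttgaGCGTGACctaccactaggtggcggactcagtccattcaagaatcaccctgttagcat
Upstream of Bach2, not met, chr4:32231844-32231993, + strand: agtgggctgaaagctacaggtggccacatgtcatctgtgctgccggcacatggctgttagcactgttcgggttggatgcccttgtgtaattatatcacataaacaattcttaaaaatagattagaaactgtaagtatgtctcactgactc

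The share of 3 in 75 member peaks (4.00%) was near the 3.78% of all 41983 Pax5+/+ peaks. Among Pax5+/+ peaks under 50% repeat-masked it was 7.29% of met and 5.29% of not met peaks, and 2.09% of 32851 RefSeq promoters (GRCm38) of 300 bases held the heptamer. None of the promoters of the 9 members looked up there held it (Tcf4 was not looked up). A match is a description of letters, not of a bound site.

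Id3 had the widest range of the 10 genes. It was at 362 and 521 TPM in Pax5+/+, 428 and 361 in Pax5+/-, 251 and 303 in Pax5R31Q/-, and 40.8 and 43.7 in Pax5-/-. Pax5+/+ and Pax5+/- overlapped, Pax5R31Q/- lay below both, and Pax5-/- far below all. Id3 fell 10.1-fold in Pax5-/- against Pax5+/+ (-3.33, SE 0.19, adjusted p = 2.40e-05) and was 6.41-fold higher in Pax5R31Q/- than in Pax5-/- (2.68, SE 0.19, adjusted p = 8.76e-05). In Pax5R31Q/- it differed from Pax5+/+ by -0.65 (SE 0.19, adjusted p = 0.119), and by -0.91 (adjusted p = 0.0476) without Pax5+/+ library 1 but -0.39 (adjusted p = 0.457) without library 2. All 6 Pax5+/+ peaks at Id3 (chr4:136143822-136145392, + strand) were met, 2 of them at the TSS, and a 355-bp peak 15697 bp upstream is shown as the distal site kept in both lists.

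Upstream of Id3, met, chr4:136127874-136128023, + strand: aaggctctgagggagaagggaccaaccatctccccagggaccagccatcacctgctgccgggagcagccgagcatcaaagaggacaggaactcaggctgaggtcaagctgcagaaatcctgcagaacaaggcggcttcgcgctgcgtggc

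Tcf4, whose protein Id3 can bind, moved little. Its level was 95.5 and 97.5 TPM in Pax5+/+, 79.91 and 80.05 in Pax5+/-, 69.4 and 67.3 in Pax5R31Q/-, and 59.0 and 87.5 in Pax5-/-. The first 3 genotypes did not overlap, and Pax5-/- spanned both Pax5+/- and Pax5R31Q/-. The differences from Pax5+/+ were -0.49 (SE 0.17, adjusted p = 0.185) in Pax5R31Q/- and -0.42 (SE 0.17, adjusted p = 0.0973) in Pax5-/-, and neither was called. The first had an adjusted p of 0.0215 or 0.0218 without a Pax5-/- library, and the second was -0.14 (adjusted p = 0.255) without Pax5-/- library 1 and -0.70 (adjusted p = 0.00251) without library 2. Of its 8 Pax5+/+ peaks 4 were met, including both TSS peaks.

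Pou2af1 and Pou2f2 encode partners at octamer sites and went different ways. Pou2af1 was the most abundant of the 10 transcripts, at 990.3 and 1003 TPM in Pax5+/+, 894.5 and 898 in Pax5+/-, 1097 and 1009 in Pax5R31Q/-, and 414 and 515 in Pax5-/-. It fell in Pax5-/- (-1.11, SE 0.13, adjusted p = 0.000582) and was higher in Pax5R31Q/- than in Pax5-/- (1.19, SE 0.13, adjusted p = 0.000574). Between Pax5R31Q/- and Pax5+/+ it differed by 0.08, with a 95% interval of -0.23 to 0.38. Pou2f2 was at 40.5 and 62.7 TPM in Pax5+/+, 55.7 and 41.8 in Pax5+/-, 45.4 and 45.6 in Pax5R31Q/-, and 71.4 and 96.1 in Pax5-/-. It was lower in Pax5R31Q/- than in Pax5-/- (-0.85, SE 0.24, adjusted p = 0.0303), and the difference of Pax5-/- from Pax5+/+ was 0.71 (SE 0.24, adjusted p = 0.0547), which was called under both other scalings and limma-voom (adjusted p from 0.0163 to 0.0251) and without Pax5+/+ library 2 (0.0291). The call against Pax5-/- was lost without a Pax5R31Q/- library (adjusted p = 0.140 and 0.135) or Pax5-/- library 2 (0.123). Of 4 Pax5+/+ peaks at Pou2af1 only the 911-bp TSS peak was met, while all 5 at Pou2f2 were.

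Bcl6 and Prdm1 were the least abundant of the 10. Bcl6 was at 17.3 and 15.6 TPM in Pax5+/+, 19.9 and 17.0 in Pax5+/-, 17.4 and 14.6 in Pax5R31Q/-, and 9.01 and 12.3 in Pax5-/-. It fell in Pax5-/- against Pax5+/+ (-0.59, SE 0.19, adjusted p = 0.0432), a call that was lost under 9 of 16 alternatives, among them each omission of a library except Pax5-/- library 2. Without Pax5-/- library 1 the difference was -0.39 (adjusted p = 0.145). Prdm1 was at 1.35 and 6.36 TPM in Pax5+/+, 3.72 and 1.64 in Pax5+/-, 4.45 and 3.08 in Pax5R31Q/-, and 2.47 and 1.85 in Pax5-/-. The 2 Pax5+/+ libraries rested on 98 and 411 reads and spanned the values of all other libraries. The Pax5R31Q/- libraries were both above the Pax5-/- libraries, with a difference of 0.58 (SE 0.52, adjusted p = 0.399). In Pax5R31Q/- it differed from Pax5+/+ by 0.18, with a 95% interval of -1.02 to 1.38. Bcl6 had 5 Pax5+/+ peaks, of which 2 were met, and Prdm1 had 2, of which the TSS peak was met.

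**Figure D3:**
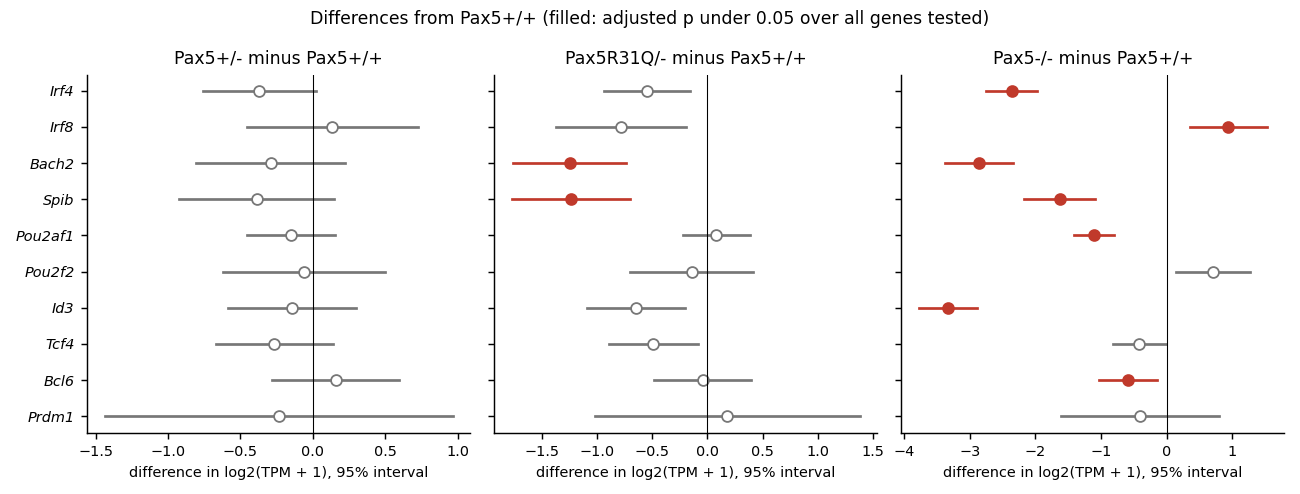
Difference in log2(TPM + 1) from Pax5+/+ (points) with 95% intervals (lines) for Pax5+/- (left), Pax5R31Q/- (middle) and Pax5-/- (right). The x axes differ between the panels, filled red points have an adjusted p under 0.05, and the 3 panels share the Pax5+/+ libraries. No point is filled on the left, Bach2 and Spib are filled in the middle, and 7 genes are filled on the right.

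As a group, the members had a median difference from Pax5+/+ of -0.52 in Pax5R31Q/- against 0.04 over all genes tested, and of -0.85 in Pax5-/- against -0.11. In Pax5+/- the 2 medians were -0.19 and 0.02. The median of all genes in Pax5-/- moved to between -0.03 and -0.02 under the other scalings, and 0 members changed direction there. The 3 comparisons share the Pax5+/+ libraries. By the rule of the study, 3.82% of the genes tested were lower in Pax5-/-, among them 4 members (Bach2, Id3, Irf4 and Spib). Between Pax5R31Q/- and Pax5-/-, 4 members were higher and 2 lower in Pax5R31Q/-, where 19.9% of all genes were higher and 14.7% lower. Between Pax5R31Q/- and Pax5+/-, 0.618% of all genes were called and 0 members. There, 4 members had an unadjusted p under 0.05, as had 1181 of all 13436 genes, and limma-voom on the recovered reads called 0.

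Over the 10 genes, 51 of 75 Pax5+/+ peaks (68.0%) were met by a Pax5R31Q/- peak. The share in the whole list was 37.5% of 41983 peaks, and 67.4% of the 22744 peaks under 50% repeat-masked, a class that held 70 of the 75 member peaks. A Pax5+/+ peak lay no more than 1 kb from a TSS in all 10 genes, as in 65.4% of the genes tested, and all 13 such peaks were met, against 92.8% of 8857 in the genome. Of the 62 member peaks away from a TSS of their own gene, 38 (61.3%) were met. Of all Pax5+/+ peaks away from the TSSs of all tested genes it was 22.7%. Under 50% masked, the 2 shares were 64.9% (37 of 57) and 51.1%. The 2 classes are unlike, since 19 of the 75 member peaks lay nearest the TSS of another gene. Peaks at the TSS of a neighbour can be among the 62 but are left out of the other class. Met member peaks had a median width of 465 bp and those not met of 290 bp, near the 468 and 316 bp of all Pax5+/+ peaks. The Pax5R31Q/- list, with 18821 peaks, added 10 member peaks without a Pax5+/+ partner. The 2 libraries differ in their labels for Rag2 as well as Pax5, and the parts of the 2 genes in the peaks not met cannot be told apart. With 1 library a genotype, these shares have no replicate error, and a missing peak means that none passed the caller's threshold. In the map of peaks along the genes, all peaks were met at Irf4, Id3 and Pou2f2, and the share was lower at Pou2af1 (1 of 4), Bcl6 (2 of 5), Tcf4 (4 of 8) and Prdm1 (1 of 2) than at Irf8 (8 of 14). The 3 Bcl6 peaks not met were all 50% masked or more, and both others were met.

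**Figure D4:**
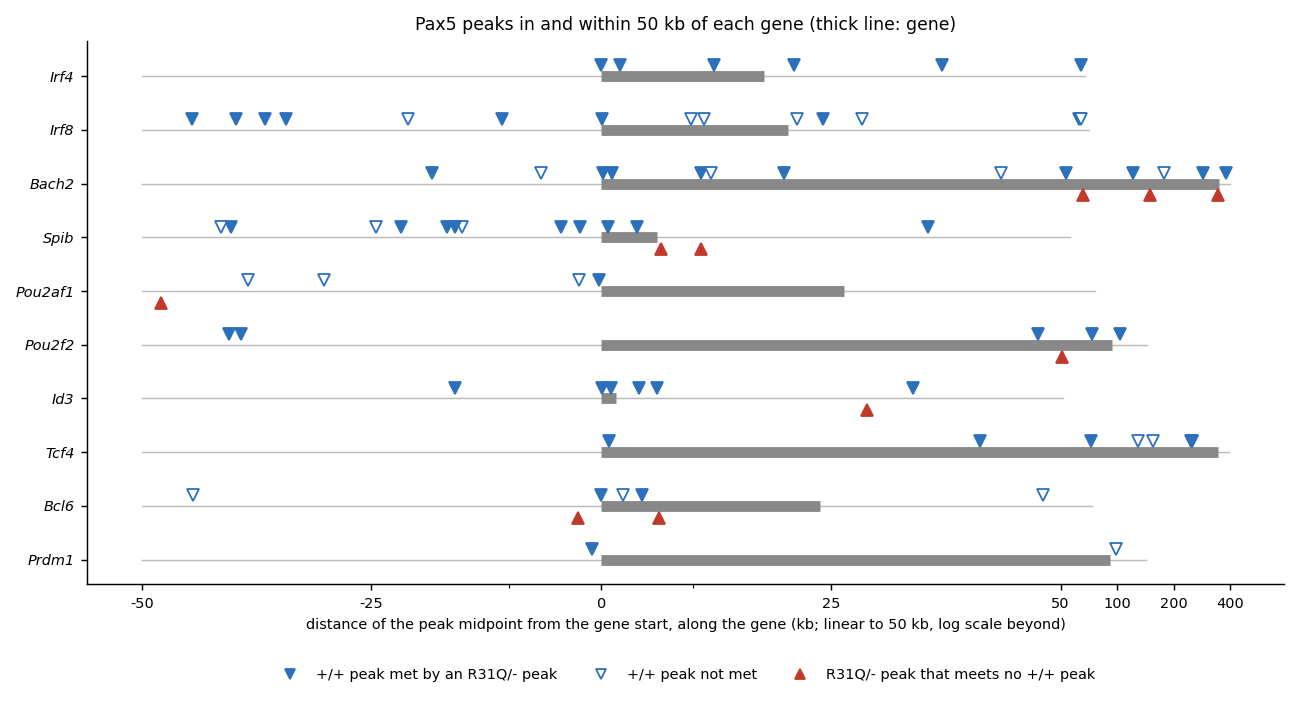
Pax5 peaks along the 10 genes, by distance of the peak midpoint from the gene start in the direction of transcription (kb, linear to 50 kb and on a log scale beyond). Thick lines are genes, thin lines the 50 kb on each side, filled blue triangles the 51 Pax5+/+ peaks met, open triangles the 24 not met, and red triangles the 10 Pax5R31Q/- peaks without a partner. Each gene has a filled triangle at a TSS, and both intronic triangles of Irf8 are open.

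Genes of the same families were compared from fixed lists. Of 9 IRF family genes, 1 rose and 0 fell in Pax5R31Q/- against Pax5+/+, and the 1 was Irf1 (0.60, SE 0.12, adjusted p = 0.0360). In Pax5-/-, 4 of the 9 rose and 1 fell, and Irf7, an interferon-pathway factor, went from 34.6 and 42.2 TPM to 116 and 106 (1.51, SE 0.18, adjusted p = 0.000573). Irf4 and Irf8 thus stood on opposite sides in Pax5-/-. Of the other E proteins, Tcf3 (E2A) fell in Pax5-/- from 1107 and 1462 TPM to 265 and 269 (-2.25, SE 0.16, adjusted p = 6.33e-05). Id2, an inhibitor of the same class as Id3, rose in Pax5-/- from 4.41 and 4.75 TPM to 26.8 and 20.6 (2.14, SE 0.26, adjusted p = 0.000645), the opposite direction to Id3.

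Genes known as IRF4 and IRF8 targets in pre-B cells (Ikzf1, Ikzf3, Cxcr4, Blnk, Igll1, Vpreb1, Rag1 and Rag2) went 7 of 8 lower in Pax5-/- against Pax5+/+, with a median of -1.33, and 0 of 8 passed the test in Pax5R31Q/-, with a median of -0.32. Rag1, Vpreb1 and Igll1 are also on the list of pro-B cell markers. The list does not separate activated from repressed targets, so its counts do not read the activity of IRF4 or IRF8. The falls over 2-fold were those of Ikzf3, Rag2 (-2.19), Igll1 (-1.64), Vpreb1 (-1.61) and Blnk (-1.05), which serve rearrangement, the surrogate light chain and pre-B cell receptor signalling. Ikzf3, which encodes Aiolos, was at 56.0 and 43.6 TPM in Pax5+/+, 33.8 and 22.4 in Pax5R31Q/-, and 1.34 and 1.90 in Pax5-/- (-4.28, SE 0.23, adjusted p = 1.81e-05 for Pax5-/- against Pax5+/+). Of 6 genes known as repressed by Blimp1, 2 fell in Pax5R31Q/- (Pax5 and Spib). In Pax5-/- 3 fell, the members Bcl6, Id3 and Spib, and 2 rose, Pax5 (1.62) and Myc (1.40). These counts repeat members described above and Pax5, the gene altered in the genotypes. Of 8 tested genes known as repressed by Bcl6, 1 rose in Pax5R31Q/-, the cyclin gene Ccnd2 (0.92, SE 0.12, adjusted p = 0.00785), and in Pax5-/- 3 rose and 1 fell, with Ccnd2 at 2.10 and the activation marker Cd69 at 1.13. Among 4 genes known as repressed by Bach2, 0 passed the test in Pax5R31Q/- and 1 fell in Pax5-/-. Germinal center genes, 4 of 6 tested, gave 0 calls in Pax5R31Q/- and 2 lower in Pax5-/-, Mybl1 at -1.73. Among Bach and small Maf proteins and among the SPI subfamily, Bach2 and Spib were the only genes called in Pax5R31Q/-, out of 5 and 3 tested. No gene was called in Pax5R31Q/- among 3 Oct factors and coactivator, 3 Id proteins, 3 E proteins and 4 Bcl6 corepressors, whose falls over 2-fold in Pax5-/- were those of Pou2af1, Id3, Tcf3, Id1 (-1.19) and Bcl6b (-2.55).

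The genes most like each member over the 8 libraries were sought for the 6 members whose genotype means spanned more than 2-fold, among 10173 genes with a mean of at least 5 TPM. Bach2 ran with Bcl2l1, the survival gene that encodes Bcl-xL, and with Tgfbr2 (Pearson's r = 0.994 for both). Irf4 ran with Ikzf3 (r = 0.995) and with an immunoglobulin heavy-chain variable segment (r = 0.996). Id3 ran with Pde4d and Reep2 (r = 0.997 and 0.996), Pou2af1 with Tmem64 and Rag2 (both 0.994), Spib with Gna11 and Hist3h2ba (0.987 and 0.986), and Irf8 with Rnase6 and Recql5 (0.978 and 0.972). Such values are a description over 8 libraries of 4 genotypes: 409 genes had an r over 0.95 with Id3 and 17 with Irf8.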

How the data were processed

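RNA-seq of sorted bone marrow cells (8 libraries) and Pax5 ChIP-seq of cultured pro-B cells (2 libraries) were used as deposited. The authors removed ribosomal reads with Bowtie2, aligned the rest with STAR 2.4.2 to GRCm38, counted unique reads per RefSeq gene and deposited TPM. Peaks were called by the authors with MACS against an input and deposited as intervals without height. By the authors' methods, reads were thinned with Picard 2.18.27 to equal depth where a peak comparison needed it, and whether this holds for the 2 deposited lists is not stated.

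Differences in log2(TPM + 1) were fitted over the 4 genotypes by limma (version 3.58.1, under R 4.3.3), with eBayes and a trend, for genes of at least 1 TPM in 1 library, with Benjamini-Hochberg adjustment over 13436 genes. No exact permutation test was used, since its smallest p for 2 libraries against 2 is 0.333. Reads behind TPM were recovered from the steps between values: all 18206 genes with values in 2 or more libraries gave whole reads, and TPM computed again from them differed by at most 3e-11. They served for limma-voom and for depth. Libraries of a genotype differed by more than counting error (median squared z over genes from 2.40 to 9.77). Immunoglobulin genes were kept. How reads were assigned to strands is not given, and Bach2, Pou2f2, Tcf4 and Bcl6 each overlap a noncoding gene of the other strand, which for Bach2 and Pou2f2 reached at most 1.16 and 1.13 TPM.

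Peaks, motifs and RefSeq (GRCm38) sequences were read with pysam 0.24.0 and pandas 2.3.3 (Python 3.11.15, numpy 2.4.6, figures by matplotlib 3.10.9). A peak was taken for a gene when in it or within 50 kb of its ends. The fit was tested on simulated data with 200 genes changed in Pax5R31Q/- against Pax5+/+. It found 0% of them at 1.5-fold, 84.5% at 2-fold and 98.5% at 4-fold. A change near 1.5-fold could thus go uncalled. Alternatives changed the pseudocount, the filter, the trend, the scaling, the samples in the fit, the peak window and the overlap. The members, the 12 gene lists and 9 marker lists were chosen with earlier results of these data known. Genes of a list were named when called and changed over 2-fold, with others named as examples after their values were seen.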

Additional observations from a re-analysis of the deposited data

How the results depend on the processing

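Each comparison was computed again under 16 alternatives and the peak share under 6. The number of members called in Pax5R31Q/- against Pax5+/+ was 2 (Bach2 and Spib) under 6 of the 8 alternatives that kept all libraries compared, 2 (Irf8 and Spib) when only both genotypes were fitted, and 0 with no filter on low TPM. Leaving out single libraries gave 0 to 4 calls: 4 without either Pax5-/- library (Bach2, Irf8, Spib and Tcf4), 1 without Pax5+/+ replicate 1 (Id3), 1 without Pax5R31Q/- replicate 1 (Bach2) and 0 without any of the others. For Pax5R31Q/- against Pax5+/- the range was 0 to 1, the 1 being Irf8 without either Pax5-/- library. The counts in Pax5-/- against Pax5+/+ ran from 5 to 8 and in Pax5R31Q/- against Pax5-/- from 5 to 7; the Irf8 rise in Pax5-/- was lost under 6 alternatives (adjusted p up to 0.112). The cause of these changes was not tested.

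Direction turned only for small differences and only when a library was left out. The ranges then were -0.45 to 0.17 (Pou2f2), -0.16 to 0.077 (Bcl6) and -0.64 to 1.003 (Prdm1) in Pax5R31Q/- against Pax5+/+, and -0.37 to 0.25 (Pou2f2), -0.40 to 0.12 (Id3) and -1.06 to 0.59 (Prdm1) in Pax5+/- against Pax5+/+. They were -1.23 to 0.42 (Prdm1) in Pax5-/- against Pax5+/+, -0.35 to 0.21 (Tcf4) in Pax5R31Q/- against Pax5-/-, and -0.39 to 0.039 (Irf4), -0.29 to 0.12 (Pou2f2) and -0.0019 to 0.83 (Prdm1) in Pax5R31Q/- against Pax5+/-. The share of member peaks met stayed between 62.5% and 71.4%. No paired analysis was possible because the labels give no replicate numbers: replicate 1 and 2 name libraries in accession order and pair nothing.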

Other observations

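Markers outside the B lineage varied between libraries of the same genotype. The 7 myeloid markers summed to 2065 and 316 TPM in the 2 Pax5-/- libraries, and to between 397 and 1525 TPM in the other 6. The plasma cell list of 4 genes summed to 381 and 566 TPM in Pax5-/- and to between 109 and 162 elsewhere. Jchain, which plasma cells and plasmacytoid dendritic cells both express, made up 273 and 408 TPM of the Pax5-/- sums. Prdm1 was at 2.47 and 1.85 TPM in the same 2 libraries. Of 4 pre-B cell markers 2 fell in Pax5R31Q/- against Pax5+/+ (Cd22 and Ms4a1), and Ms4a1 is also on the list of mature B cell markers. Neither Il2ra, which was higher (1.58, SE 0.43, adjusted p = 0.0964), nor Cd2, which was lower (-1.10, SE 0.27, adjusted p = 0.0755), was called. In Pax5-/- 3 of the 4 fell and 1, Il2ra, rose. T and NK cell markers (4 of 8 tested) and erythroid markers (3 of 5 tested) gave 0 calls in Pax5R31Q/-, and in Pax5-/- 1 lower and 1 higher and 1 lower, respectively.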
